A study of Mus musculus with 2 samples.

Results

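The AP-1, Egr and immediate early factors are here 10 genes taken by their symbols: Fos, Fosb, Fosl2, Jun, Junb, Jund, Batf, Egr1, Egr2 and Ier2. Each matched exactly 1 of the 23309 rows of the deposited gene table, and none of those 10 loci overlapped another row. RNA was sequenced from cultured mouse bone marrow progenitors given 5 nM 4-hydroxytamoxifen (4OHT) for 72 h, and from the same kind of cells given ethanol, the vehicle, for the same time. Both conditions carried loxP-flanked Cebpa alleles and CreER (genotype Cebpaf/f;CreER), a Cre recombinase that acts once it binds 4OHT, and both had been transduced with HA-tagged Hoxa9 and Flag-tagged Meis1 retroviruses and grown with interleukin-3. The marrow had been depleted of cells with lineage markers. Which promoter drives CreER and how many mice gave marrow are not given in the sources used here. Each condition is 1 deposited sample in which 2 replicates are joined. A gene thus has a single FPKM figure for 4OHT and another for vehicle, without any replicate error.

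AP-1 is a family of transcription factors built as dimers of basic leucine zipper (bZIP) proteins, in which a Fos protein needs a Jun partner while Jun proteins can also pair with each other. Many of the genes are immediate early genes, which growth factors, cytokines and stress switch on within minutes without new protein synthesis and which are then shut off again. In blood, AP-1 and Egr factors are known for their part in monocyte and macrophage development, and C/EBPα, the product of Cebpa, is itself a bZIP protein that can pair with Jun and Fos proteins.

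Values are FPKM, fragments scaled to transcript length and library size, which allows levels to be set side by side between genes. A gene was called when the authors' deposited table marked it as tested and gave a q, their adjusted p-value, under 0.05, and only called genes are said to have risen or fallen. The values summed to 673516 FPKM after 4OHT and 684536 FPKM in vehicle cells, and the table holds no read counts, so depth is unknown. Cebpa fell to 42.8 FPKM after 4OHT, against 109 FPKM in vehicle cells, at q = 0.00165 in the authors' deposited table, so 39.2% of its transcript level remained. All 7 progenitor markers examined (Kit, Cd34, Mpo, Ctsg, Elane, Myb and Flt3) were above 1 FPKM in both conditions. Of these Kit, Cd34 and Flt3 rose, Ctsg and Elane fell and Mpo and Myb were not called. Over all 10932 tested rows of at least 1 FPKM, 3.10% fell and 2.70% rose. Of 12 lymphoid, erythroid and stromal markers, 11 stayed under 1 FPKM, with Pax5, Cd3e, Cd3g and Cd4 among those at 0 in both. The exception was Pdgfrb, a growth factor receptor, which rose to 13.3 FPKM after 4OHT, against 6.62 FPKM in vehicle cells, at q = 0.00165 in the authors' deposited table.

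Fosl2 was the only one of the 10 genes that was called, and it fell. The other 9 genes gave no call. Of the 10, 8 were tested by the authors and 7 reached 1 FPKM in the higher condition. The 3 genes below that level were Fos, Fosb and Egr2. Over all 11953 tested rows, 5.91% were called, 2.80% higher and 3.11% lower after 4OHT, and nothing particular to the set is read from 1 called row. In bulk RNA, a smaller number of cells that hold a transcript and less of it per cell cannot be told apart. Nor can loss of Cebpa, 4OHT itself and Cre activity be told apart in this design.

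**Figure D1:**
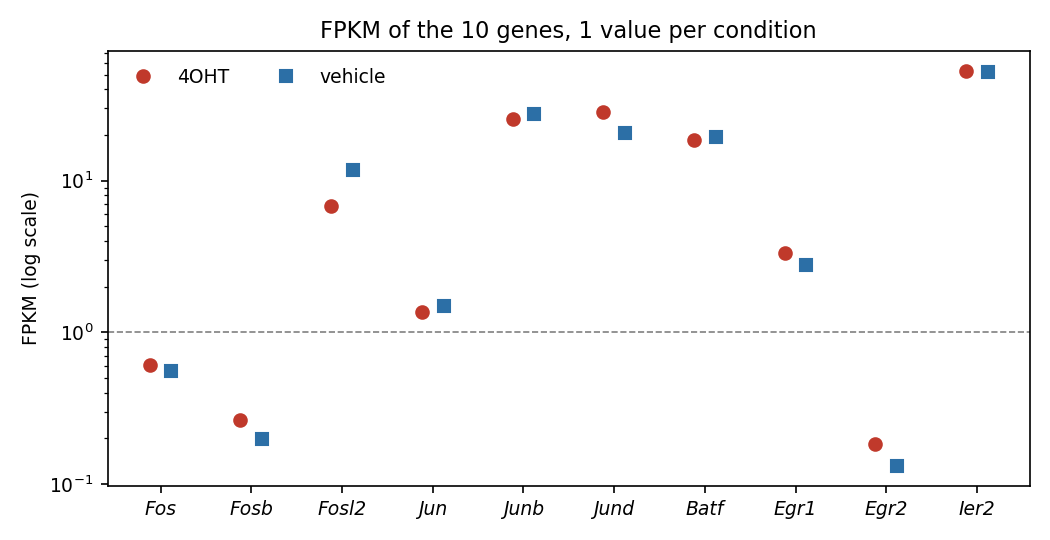
FPKM of each of the 10 genes on a log axis, with circles for the 4OHT sample, squares for the vehicle sample and a dashed line at 1 FPKM. Fosl2 shows a clear gap downwards after 4OHT (6.83 against 11.8 FPKM) and Jund a smaller one upwards (28.2 against 20.7 FPKM), while the points of Junb, Batf and Ier2 lie close together.

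Fosl2 encodes Fra-2, a Fos family protein without the strong activation domain of Fos. It stood at 6.83 FPKM in cells given 4OHT and at 11.8 FPKM in vehicle cells, so 57.7% of the vehicle level remained, a 1.73-fold fall. In the authors' deposited table its q was 0.00165, the smallest that table holds and shared by 363 tested rows. On the log2(FPKM + 1) scale the change was -0.71. Among 2429 other tested rows of like level, whose higher value was within 1.5-fold of that of Fosl2, 122 were called and the smallest called change was 1.41-fold. Of those rows 74 changed by at least as much as Fosl2, and 68 of the 74 were called. Fosl2 lies on chromosome 5 of mm9 at 32438845 to 32460212. The nearest rows on either side were not called: Bre, 51.7 kb away, had 37.4 FPKM after 4OHT and 36.2 FPKM in vehicle cells, and Plb1, 74.9 kb away, had 0.141 and 0.460 FPKM in the same order.

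**Figure D2:**
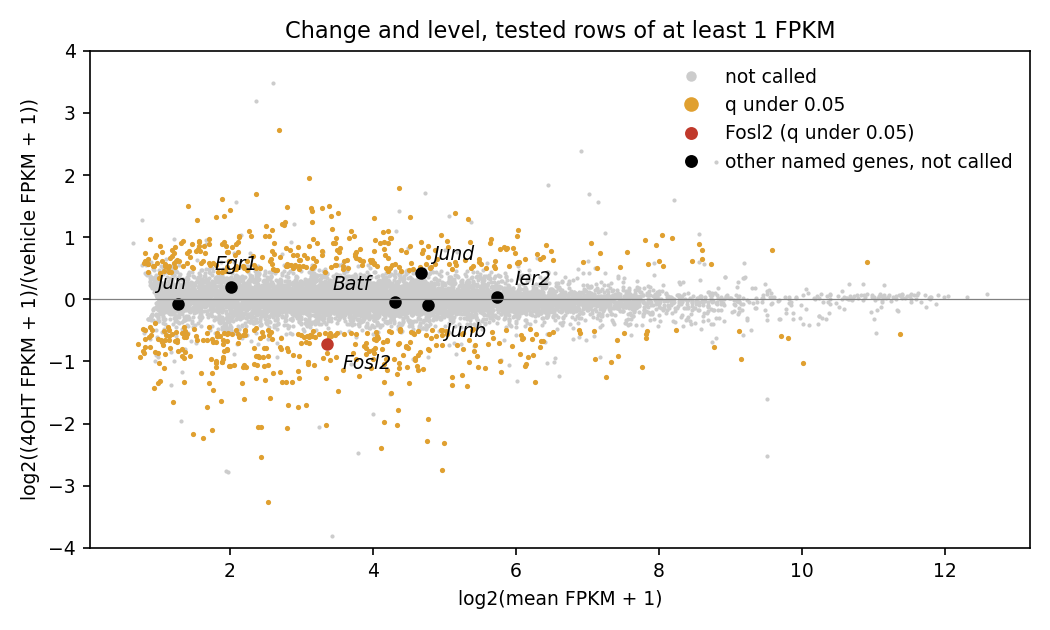
Change after 4OHT, as log2((4OHT FPKM + 1)/(vehicle FPKM + 1)), against level, as log2(mean FPKM + 1), for the tested rows of at least 1 FPKM; grey rows were not called and orange rows had q under 0.05. Of the 7 named genes, Fosl2 (red) lies among the called rows at -0.71 and Jund at the upper edge of the grey band at 0.43, and the other 5 (black) lie inside that band; 22 rows beyond a log2 change of 4 either way are not drawn.

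The other Fos family genes were far lower. Fos itself, the founding member, had 0.613 FPKM after 4OHT and 0.552 FPKM in vehicle cells, at q = 1.00 in the authors' deposited table. Fosb had 0.265 FPKM after 4OHT and 0.197 FPKM in vehicle cells and was not tested by the authors; it lies on chromosome 7 of mm9 at 19888045 to 19895394. At the level of Fos the smallest change called among 727 rows was 1.71-fold. Fosl1, which encodes Fra-1 and is not among the 10, had 1.40 FPKM after 4OHT and 1.69 FPKM in vehicle cells and was not called. Fosl2 made up 74.9% of the summed FPKM of these 4 Fos family genes after 4OHT and 82.9% in vehicle cells. The sum itself was 9.11 FPKM after 4OHT and 14.3 FPKM in vehicle cells, a ratio of 0.638 that has no test of its own.

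The stretch before the transcription start is shown for Fosl2 because it was the called gene, and a shorter stretch for Fosb because it holds the same match. Sequences are from RefSeq on GRCm38.p6, a build other than that of the deposited loci, and capitals mark the letters GCGNGGGCG of the Egr motif. The Fosl2 stretch is chr5:32136222-32136471 on the plus strand, and the Fosb stretch is chr7:19310067-19310115 on the minus strand.
Fosl2: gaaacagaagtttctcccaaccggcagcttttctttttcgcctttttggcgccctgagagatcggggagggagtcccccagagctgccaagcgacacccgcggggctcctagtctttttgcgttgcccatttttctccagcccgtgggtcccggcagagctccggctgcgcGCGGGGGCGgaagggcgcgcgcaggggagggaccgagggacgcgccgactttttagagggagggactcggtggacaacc
Fosb: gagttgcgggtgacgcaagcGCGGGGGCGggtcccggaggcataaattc

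Counted from the start, the match begins at position -79 in Fosl2 and at position -50 in Fosb. On both strands of the 250 bases before the start, the Egr letters were found in 2 of the 8 genes that the promoter table holds and in 4.74% of 32536 distinct promoter stretches. The same search covered TGACGTCA (the cyclic AMP response element), TGANTCA (the AP-1 site), TTGCNNCAA (a C/EBP site), CCGGAA (the core of ETS sites) and the CArG box bound by SRF, and none of these motifs contains another. The first 3 were found in none of the 8 genes, against 1.56%, 6.73% and 1.75% of all promoter stretches. The ETS letters were found before Batf and Egr2, and in 12.1% of all stretches, but Egr2 had 5 windows searched. Absence of these letters says nothing on sites outside these windows or spelled differently. Egr1 and Ier2 were not searched.

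Among the Jun genes, Junb and Jund were expressed at like levels and Jun much lower. Jund, whose product is present in resting cells and restrains growth in several cell types, had 28.2 FPKM after 4OHT and 20.7 FPKM in vehicle cells. In the authors' deposited table its unadjusted p was 0.0072 and its q was 0.101, so it was not called. The ratio of 1.36 lay just below the smallest change called among 2421 rows of like level, 1.39-fold. Junb, which is needed to hold back myeloid proliferation in mice, had 25.6 FPKM after 4OHT and 27.4 FPKM in vehicle cells, and q = 1.00 in the authors' deposited table. Jun, which encodes c-Jun, had 1.36 FPKM after 4OHT and 1.48 FPKM in vehicle cells, and q = 1.00 there too.

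The order of the 2 abundant Jun genes therefore differed between the samples. Jund stood at 1.11 times the FPKM of Junb after 4OHT and at 0.754 times in vehicle cells. Neither gene was called, so the swap is given as values with no test. Jun supplied 2.47% of the summed Jun family FPKM after 4OHT and 2.99% in vehicle cells. The family sum was 55.2 FPKM after 4OHT and 49.6 FPKM in vehicle cells. It was 6.06 times the Fos family sum after 4OHT and 3.48 times that sum in vehicle cells, ratios that have no test of their own. Jund, Junb and Ier2 lie on chromosome 8 of mm9, at 73221638 to 73224515, 87500808 to 87502647 and 87185230 to 87186751. Ier2 and Junb are 314 kb apart. Jun lies on chromosome 4 at 94715727 to 94718913.

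**Figure D3:**
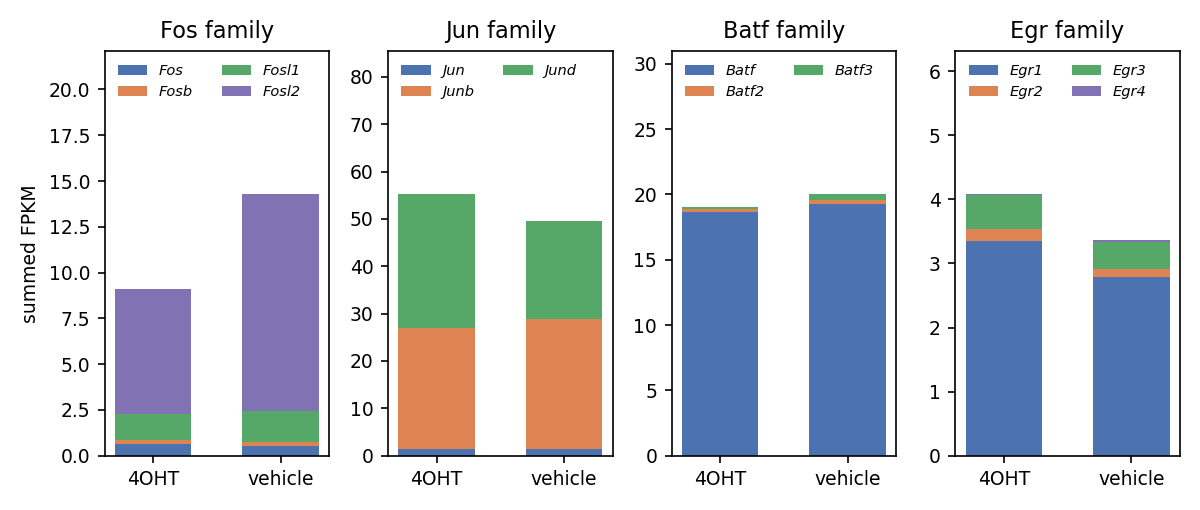
Summed FPKM of the Fos, Jun, Batf and Egr families, each panel with its own axis from 0, with the 4OHT bar on the left and the vehicle bar on the right and colours for the genes. The Fos family bar is shorter after 4OHT (9.11 against 14.3 FPKM), with a shorter Fosl2 segment (6.83 against 11.8 FPKM), and the Jund segment is taller after 4OHT (28.2 against 20.7 FPKM).

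Batf encodes a bZIP protein with no activation domain that pairs with Jun proteins and, in lymphocytes and dendritic cells, binds composite sites with IRF4 or IRF8. It had 18.6 FPKM after 4OHT and 19.3 FPKM in vehicle cells, at q = 1.00 in the authors' deposited table. It made up 97.7% of the summed FPKM of Batf, Batf2 and Batf3 after 4OHT and 96.4% in vehicle cells. Batf3, which a subset of conventional dendritic cells needs, had 0.171 FPKM after 4OHT and 0.453 FPKM in vehicle cells and was not called. On a list of Batf partners and related genes, 3 reached 1 FPKM (Irf8, Spi1 and Ikzf1), of which 1 fell and none rose. Over all 10932 tested rows at that level, 3.10% fell and 2.70% rose. Irf8, needed for monocyte and dendritic cell development, fell to 14.7 FPKM after 4OHT, against 21.7 FPKM in vehicle cells, at q = 0.0182 in the authors' deposited table. That change was under 1.5-fold. Spi1, which encodes PU.1 and stands in the table under the older symbol Sfpi1, had 81.3 FPKM after 4OHT and 99.8 FPKM in vehicle cells. Ikzf1 had 39.6 FPKM after 4OHT and 36.1 FPKM in vehicle cells, and Irf4 was under 1 FPKM in both.

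Batf and Fos sit on either side of a further AP-1 gene that was called. On chromosome 12 of mm9 the rows run Fos (86814851 to 86818219), Jdp2 (86940055 to 86980828) and Batf (87027670 to 87050037), with gaps of 122 kb and 46.8 kb. Jdp2, a repressor that dimerises with Jun proteins, fell to 30.2 FPKM after 4OHT, against 44.3 FPKM in vehicle cells. In the authors' deposited table its q was 0.0235, and the fall of 1.47-fold was just under the 1.5-fold that a second call column of that table requires. Its neighbours Fos and Batf were not called. Jdp2 stood above every one of the 10 genes except Ier2 in vehicle cells.

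Jdp2 was the only called gene among the 12 other AP-1 and related bZIP factors at 1 FPKM or more, and the other 11 were not called. Over all tested rows at that level 3.10% fell and 2.70% rose, and nothing particular to the list is read from 1 called gene. The list's median log2 change was -0.10, against 0.00 over the tested rows at that level. Atf1 and Atf2, which bind cyclic AMP response elements, differed by less than 0.01 on the log2 scale. Mafg, a small Maf protein, had 33.7 FPKM after 4OHT and 42.0 FPKM in vehicle cells. Atf3, a stress-induced gene, had 0.833 FPKM after 4OHT and 1.16 FPKM in vehicle cells, and neither was called. Maf, below 1 FPKM and so outside that count, fell to 0.117 FPKM after 4OHT, against 0.359 FPKM in vehicle cells, at q = 0.0426 in the authors' deposited table.

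The Egr genes encode zinc finger factors that bind GC-rich sites. Egr1, the best known of them, had 3.36 FPKM after 4OHT and 2.78 FPKM in vehicle cells, a ratio of 1.21, at q = 0.940 in the authors' deposited table. At its level the smallest change called among 1346 rows was 1.49-fold, above the ratio of Egr1. Without replicate values, whether a difference of this size could be detected is unknown. Egr2, which acts in macrophages and in myelinating cells, had 0.184 FPKM after 4OHT and 0.131 FPKM in vehicle cells and was not tested. Egr1 made up 82.3% of the summed FPKM of the 4 Egr genes after 4OHT and 82.6% in vehicle cells. The corepressors that bind Egr proteins were both expressed and not called: Nab1 had 6.92 FPKM after 4OHT and 7.79 FPKM in vehicle cells. Nab2, itself an Egr target, had 8.82 FPKM after 4OHT and 7.999 FPKM in vehicle cells.

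Egr2 was the only gene of the 8 searched with a CArG box in the 250 bases before a start, and the box is shown because SRF acts on it in immediate early genes. Across all promoter stretches 1.48% held one, a share of single stretches, whereas Egr2 had 5 windows. The table lists 5 starts for Egr2, of which the windows of 4 hold a box, and those of the second and the third start are shown. The boxes of the other starts, with their flanks, repeat the stretches shown. The stretches are chr10:67537474-67537523 and chr10:67537777-67537826 of GRCm38.p6, plus strand, with the box in capitals.
Egr2 first box: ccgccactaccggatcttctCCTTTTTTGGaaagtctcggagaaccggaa
Egr2 second box: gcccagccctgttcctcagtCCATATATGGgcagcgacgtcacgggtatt

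Ier2, an immediate early gene for a small nuclear protein, had the highest level of the 10 in both samples. It had 53.2 FPKM after 4OHT and 52.1 FPKM in vehicle cells, a ratio of 1.02, at q = 1.00 in the authors' deposited table. At its level 70 of 1673 rows were called, the smallest at 1.41-fold. Its neighbours Nacc1 and Cacna1a were not called.

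Ranked by FPKM, the 10 genes ran Ier2, Jund, Junb, Batf, Fosl2, Egr1, Jun, Fos, Fosb and Egr2 after 4OHT, and in vehicle cells the order was the same but for Jund and Junb. On mm9, Egr1 lies on chromosome 18 at 35020861 to 35024610 and Egr2 on chromosome 10 at 67000617 to 67004936. Without replicate values, neighbours in that order cannot be compared against a spread. Leaving out Fosl2 and Jund, the 5 other genes at 1 FPKM or more had ratios between 0.919 and 1.21. The median log2 change of the 7 genes at that level was -0.05.

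Other immediate early genes were mostly not called, and those that were called fell. Of 37 listed genes 28 reached 1 FPKM, 3 fell, none rose and 25 were not called, where 3.10% of all tested rows at that level fell and 2.70% rose. The median log2 change was -0.01. Klf2, a zinc finger factor that keeps T cells quiescent, fell 7.09-fold, to 1.09 FPKM after 4OHT, against 7.70 FPKM in vehicle cells. Zfp36l1, which binds AU-rich messages and speeds their decay, fell to 0.366 FPKM after 4OHT, against 1.34 FPKM in vehicle cells. Both had q = 0.00165 in the authors' deposited table. Btg1, an antiproliferative gene, fell to 7.31 FPKM after 4OHT, against 11.6 FPKM in vehicle cells, at q = 0.00310 in the authors' deposited table.

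The listed dual-specificity phosphatases, Dusp1, Dusp2, Dusp5 and Dusp6, which act on MAP kinases, were not called. Dusp2 had 20.8 FPKM after 4OHT and 14.3 FPKM in vehicle cells, at q = 0.0747 in the authors' deposited table. Dusp6, which acts on ERK, had 11.5 FPKM after 4OHT and 15.1 FPKM in vehicle cells, at q = 0.265 there. Ier3, Zfp36 and Nr4a1 of the same list were not called either. Ier3 had 25.1 FPKM after 4OHT and 25.5 FPKM in vehicle cells, and Zfp36 had 7.61 and 8.09 FPKM in the same order. Nr4a1, an orphan nuclear receptor, had 2.50 FPKM after 4OHT and 2.93 FPKM in vehicle cells. In the list, 3 genes not called had an unadjusted p under 0.05 in the authors' deposited table. Dusp2 and Nfkbiz had the higher value after 4OHT and Dusp6 the lower. Nfkbiz had 1.16 FPKM after 4OHT and 0.715 FPKM in vehicle cells.

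**Figure D4:**
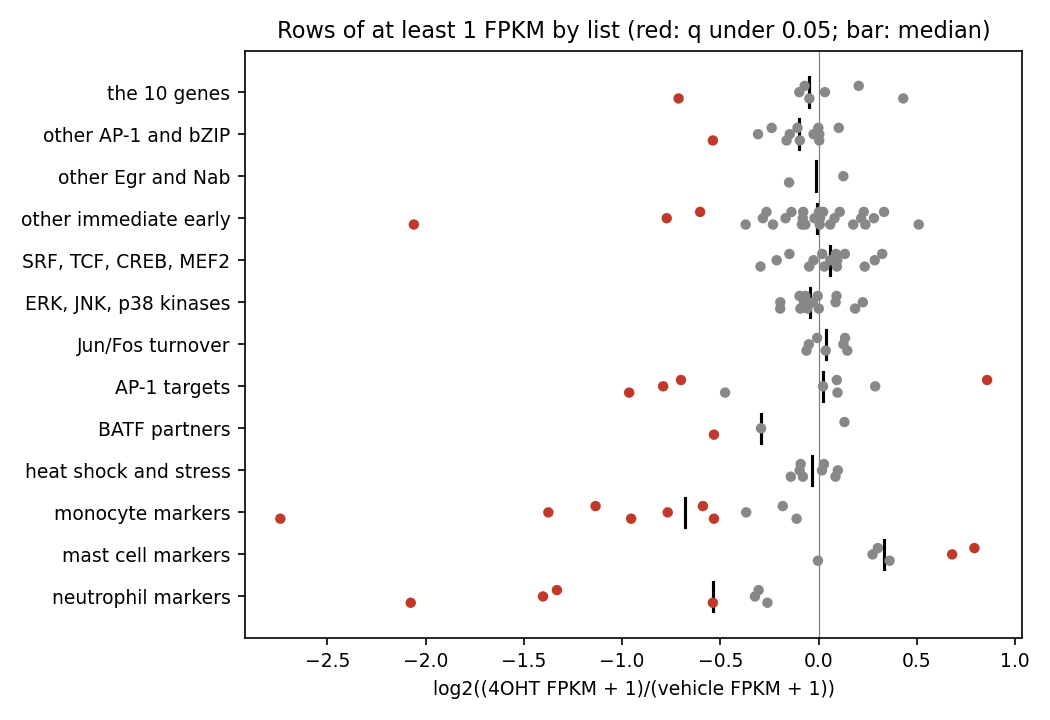
Log2((4OHT FPKM + 1)/(vehicle FPKM + 1)) of the genes at 1 FPKM or more in each list, with red points for q under 0.05, grey points for genes not called and a black bar at the median. The kinase, SRF/CREB, turnover and heat shock lists hold no red point and cluster around 0, while the monocyte list has its median at -0.68.

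No listed regulator, kinase or turnover gene was called. With 3.10% of tested rows at 1 FPKM or more called lower and 2.70% higher, lists of this size with no call lie near the background, and nothing particular to them is read from it. None of the 15 SRF, ternary complex, CREB and MEF2 regulators was called, with a median log2 change of 0.06 and 1 gene, Elk4, at an unadjusted p under 0.05. Srf had 23.5 FPKM after 4OHT and 29.1 FPKM in vehicle cells. Elk4, an SRF partner, had 9.05 FPKM after 4OHT and 7.03 FPKM in vehicle cells. None of the 14 ERK, JNK and p38 pathway kinases was called, with a median of -0.04 and none at an unadjusted p under 0.05. In that list Rps6ka3 had 14.96 FPKM after 4OHT and 12.7 FPKM in vehicle cells, and Map2k1 had 27.3 and 31.4 FPKM in the same order. None of the 7 genes for turnover of Jun and Fos proteins was called, with a median of 0.04 and none at an unadjusted p under 0.05. Det1 had 8.57 FPKM after 4OHT and 7.65 FPKM in vehicle cells, and Ndfip1 85.6 and 77.9 FPKM in the same order. RNA levels say nothing of kinase activity or of Fos and Jun protein.

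Genes known as AP-1 targets went both ways. Of 16 listed, 9 reached 1 FPKM, 3 fell, 1 rose and 5 were not called, beside 3.10% lower and 2.70% higher over all tested rows at that level. The median log2 change was 0.02. Several had been seen in earlier results of these data when the list was drawn up, so their direction is not independent evidence. Mmp13, a collagenase, fell to 1.53 FPKM after 4OHT, against 3.94 FPKM in vehicle cells. Hmox1, haem oxygenase, fell to 10.9 FPKM after 4OHT, against 19.7 FPKM in vehicle cells. Both had q = 0.00165 in the authors' deposited table.

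Spp1, the gene of osteopontin, fell to 10.4 FPKM after 4OHT, against 17.6 FPKM in vehicle cells, at q = 0.0121 in the authors' deposited table. Il6, a cytokine with AP-1 and C/EBP sites in its promoter, rose to 10.1 FPKM after 4OHT, against 5.13 FPKM in vehicle cells, at q = 0.00569 in that table. Ptgs2, below 1 FPKM, fell to 0.212 FPKM after 4OHT, against 0.637 FPKM in vehicle cells, at q = 0.00310 in the authors' deposited table. Plaur, the urokinase receptor gene, had 16.2 FPKM after 4OHT and 22.9 FPKM in vehicle cells, at q = 0.106 in the authors' deposited table, and Tgfb1 had 228 and 187 FPKM in the same order.

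Several listed markers of monocytes, neutrophils and mast cells changed alongside Fosl2, and their part in its fall was not tested. Which cells held these transcripts is unknown, and Kit is also among the progenitor markers. Of 12 monocyte and macrophage markers 10 reached 1 FPKM, 7 fell and none rose, against 3.10% lower and 2.70% higher over all tested rows at that level. The marker lists were drawn up with earlier results of these data known, so such counts are not independent evidence. The summed level of the list was 628 FPKM after 4OHT and 1023 FPKM in vehicle cells, of which Ly6c2 alone held 323 and 551 FPKM. None of the markers was at 0 in both conditions, with Cx3cr1 among those under 1 FPKM. The 7 were F13a1, Lgals3, Itgam, Cd14, Ly6c2, Cd68 and Irf8. F13a1 fell 7.47-fold, more than Fosl2, and Cd68 1.53-fold, less than Fosl2. Csf1r, the defining receptor of the lineage, had 2.55 FPKM after 4OHT and 2.84 FPKM in vehicle cells and was not called. Ccr2 had 87.8 FPKM after 4OHT and 114 FPKM in vehicle cells, and Emr1 129 and 147 FPKM in the same order, also without a call.

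The same background shares, 3.10% lower and 2.70% higher, apply to the neutrophil and mast cell markers. Of 10 neutrophil markers 7 reached 1 FPKM, 4 fell (S100a8, S100a9, Lcn2 and Cxcr2) and none rose, and the list summed to 96.3 FPKM after 4OHT and 163 FPKM in vehicle cells. Mmp8 had 2.198 FPKM after 4OHT and 3.003 FPKM in vehicle cells, and Cebpe 13.6 and 17.1 FPKM in the same order, both not called. Padi4, with 51.7 and 62.1 FPKM in that order, was not called either. The late granulocyte genes Ltf, Camp and Ngp stayed under 1 FPKM in both conditions, without a call. Of 10 mast cell and basophil markers 6 reached 1 FPKM, Cpa3 and Kit rose and none fell, and the list summed to 1119 FPKM after 4OHT and 684 FPKM in vehicle cells. Most of that difference was Cpa3, a mast cell protease gene, with 975 FPKM after 4OHT and 562 FPKM in vehicle cells. Mcpt8, a basophil protease gene, had 61.0 FPKM after 4OHT and 61.2 FPKM in vehicle cells, and Tpsb2 0.654 and 0.839 FPKM in the same order, both not called. Cma1 had 3.06 FPKM after 4OHT and 2.16 FPKM in vehicle cells, and Ms4a2 8.94 and 7.07 FPKM in the same order, both not called. In that list Mcpt4 and Mcpt1 were at 0 in both samples, and Fcer1a was under 1 FPKM in both.

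Heat shock and stress genes can move together with immediate early genes when cells are handled. Of 11 listed, 8 reached 1 FPKM and none was called, which is near the background of 3.10% lower and 2.70% higher. None of the 8 was at an unadjusted p under 0.05, and the median log2 change was -0.03. Dnajb1 had 27.8 FPKM after 4OHT and 25.9 FPKM in vehicle cells. Atf4 had 285 FPKM after 4OHT and 315 FPKM in vehicle cells. Hspa1a and Hspa1b, which respond most to heat shock, stayed under 0.1 FPKM in both.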

How the data were processed

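Libraries were prepared with a TruSeq RNA kit from DNase-treated RNA, per the labels' protocols. The mm9 build, Cuffdiff 2.0.2, Bowtie2 2.0.0.7 and CASAVA 1.8.2 appear in the submitters' processing notes without roles. The annotation and strand setting are not given by the sources used here. In all, the authors deposited 1 table with 1 FPKM value per gene and condition, a p-value and q-value, a linear fold ratio and a test score (the last unused here), per the file headers. The deposited q equals a Benjamini-Hochberg adjustment over the 11953 tested rows within 5.28e-07, and which test made the p-values is unknown.

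Since the replicates were joined before deposit, no test could be run. Log2 changes used a pseudocount of 1 FPKM, and a gene counted in a list at 1 FPKM or more in its higher condition. The 10 genes, 7 progenitor markers and 13 lists (171 entries, 1 matched through an older symbol) were chosen with earlier results of these data known. From each list, called genes and the 2 largest changes not called were named, and a few others were chosen after their values were seen. Alternatives were another q threshold, adjustment, pseudocount, floor and scaling. Proteins were not analysed here. Python 3.11.15 and pandas 2.3.3 were used, and the p-value adjustment and motif search were tested on simulated data.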

Additional observations from a re-analysis of the deposited data

How the results depend on the processing

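Fosl2 was called lower under every call rule tried (q under 0.01 or 0.1, adjustment over tested rows of at least 1 FPKM, an unadjusted p under 0.05, and, chosen after seeing the data, q under 0.05 with at least 1.5-fold), and its log2 change ran from -0.79 to -0.69 over 5 pseudocount and scaling alternatives. With an unadjusted p under 0.05, 1 gene of the 10 was higher, Jund, whose log2 change ran from 0.43 to 0.45. Of the scalings, that to equal totals shifted all rows most, with a log2 ratio of totals of -0.02. Without the 1 FPKM floor, 2 other AP-1 and bZIP factors were lower, Maf being added, and with at least 1.5-fold required there were 0, as Jdp2 dropped out. That rule also left 0 genes lower on the list of Batf partners and related genes, without Irf8. At q under 0.1, 1 other immediate early gene, Dusp2, was higher. The median of the neutrophil markers was -0.54, -1.33 with a floor of 5 FPKM and -0.70 with a pseudocount of 0.1. Of 177 alternatives in all, 166 changed neither a count by over 1.5 times nor a log2 value by over 0.1, and none reversed a call. The scalings could not have moved a log2 value by 0.1, their largest shift being -0.02. Rules looser than q under 0.05 could not have undone the call of Fosl2. The tally is therefore not a measure of how firm the results are. No paired analysis was possible because each condition is 1 deposited value that joins its replicates.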
